A study of Mus musculus with 6 samples.

Results

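HFD VSG mice, which were fed a high-fat diet and underwent vertical sleeve gastrectomy, were compared directly with LFD sham mice, which were fed a low-fat diet and underwent a sham operation. The comparison used 4 of the 6 libraries of the study and left out the HFD sham libraries, whose levels are given beside a few genes only. All mice were wildtype male C57BL/6J of about 30 weeks, had been on their diet for 16 weeks when operated on, went back to it afterwards, and were sampled after an overnight fast 5 weeks after surgery. Jejunal epithelium was separated into crypts and villi, single-cell suspensions were pooled (3 LFD sham mice, 2 HFD VSG mice), and each pool gave 1 library per fraction, in which RNA was captured in droplets and counted as unique molecular identifiers (UMIs). Barcodes, the tags of single droplets, were kept when they held at least 750 genes and at most 20% mitochondrial UMIs, which left 19095 barcodes in the 4 libraries, of 26696 in the whole study. UMIs were summed over the kept barcodes of each library, scaled to counts per 1000000 UMIs (CPM), and compared as log2 ratios of HFD VSG over LFD sham within each fraction. Diet and operation both differed between the groups, as did the pools and the library preparations, so their contributions cannot be told apart. With 1 pooled library per group and fraction there were no replicates, no test was made, and every bracket below holds a 95% interval of counting error only.

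The small intestinal epithelium is renewed from stem cells at the crypt base, whose progeny stop dividing, migrate onto the villus and, for the most part, become enterocytes that digest and absorb nutrients. Enterocytes also face the gut microbes: they secrete antimicrobial lectins and can carry major histocompatibility complex (MHC) class II, the molecule that presents peptides from outside the cell to helper T cells. Vertical sleeve gastrectomy removes most of the stomach along its greater curvature and leaves the small intestine in place.

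Of the crypt-labelled libraries, LFD sham kept 4610 barcodes with 57092712 UMIs and HFD VSG kept 5232 with 86524926. Of the villus-labelled libraries, LFD sham kept 4556 barcodes with 64227773 UMIs and HFD VSG kept 4697 with 144932811. The median barcode held 9202 (LFD sham) and 16733.5 UMIs (HFD VSG) in crypts and 11011.5 and 30895 in villi. The HFD VSG libraries were thus the deeper ones in both fractions. Pairs of the 4 libraries shared 5 to 10 barcodes. Each barcode was assigned to the list of cell type markers whose share of its UMIs was highest relative to the average barcode. Enterocyte markers led in 84.2% and 81.7% of the crypt-labelled barcodes (LFD sham, HFD VSG) but in only 41.8% and 33.1% of the villus-labelled ones, and stem cell markers led in 1.69% and 5.10% of the crypt-labelled and 8.85% and 18.5% of the villus-labelled barcodes. The summed stem cell markers stood at 173 and 273 CPM in crypts and 877 and 740 in villi, so in villi the share and the summed level went opposite ways. Paneth cell markers led in 2.08% and 0.956% of the crypt-labelled and 7.59% and 2.34% of the villus-labelled barcodes. Stem and Paneth cells reside in crypts, so these markers ran against the fraction labels in both groups, and "crypts" and "villi" below refer to the labels.

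Of 6540 genes with a mean of at least 10 CPM in each fraction, 19 were at least 2-fold higher in HFD VSG in both fractions (0.291% of the genes) and 34 were at least 2-fold lower in both (0.52%). A further 2 genes (0.0306%), Sst and Gcg, passed 2-fold in opposite directions. Within the crypts 35 genes were at least 2-fold higher (0.535%) and 42 lower (0.642%), and within the villi 141 were higher (2.16%) and 271 lower (4.14%). The median log2 ratio over all genes was 0.13 in crypts and -0.10 in villi, and 87.8% and 60.0% of the genes lay within 0.5 of zero. The text names the 15 genes furthest from zero in each direction by the smaller of the 2 ratios, the 2-fold members of gene lists and the genes that the study itself names. Of the members at the extremes of gene lists only some are named, and any other gene was named after its values were seen. The ratios of the 2 fractions had a Pearson r of 0.73 across the 6540 genes, which are not independent replicates and share their library totals. Both fractions of a group also came from the same pooled mice. The genes just inside the 2-fold limit, by the smaller of their 2 log2 ratios, were 2410006H16Rik (1.01) and 1110038B12Rik (1.02) above and Hist1h4c (-1.01) and Mgam (-1.03) below, and those just outside, named for that place, were Pter (0.97), Rpl12 (0.98), mt-Atp8 (-0.98) and Muc3 (-0.99). How many genes passed upward depended on the scaling: median-of-ratios scaling moved the median of all genes to 0.01 in crypts and 0.08 in villi and gave 12 genes higher and 38 lower, so that the higher genes made up 24.0% of the calls instead of 35.8%. They made up 20.3% with totals that left out nuclear and ribosomal-RNA transcripts and 65.5% with each barcode weighted alike. With barcodes of at most 10% mitochondrial UMIs, 14 of the 19 higher and 22 of the 34 lower genes kept 2-fold in both fractions and 23 of the 53 had a ratio that moved by more than 1.5 times in at least 1 fraction.

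**Figure D1:**
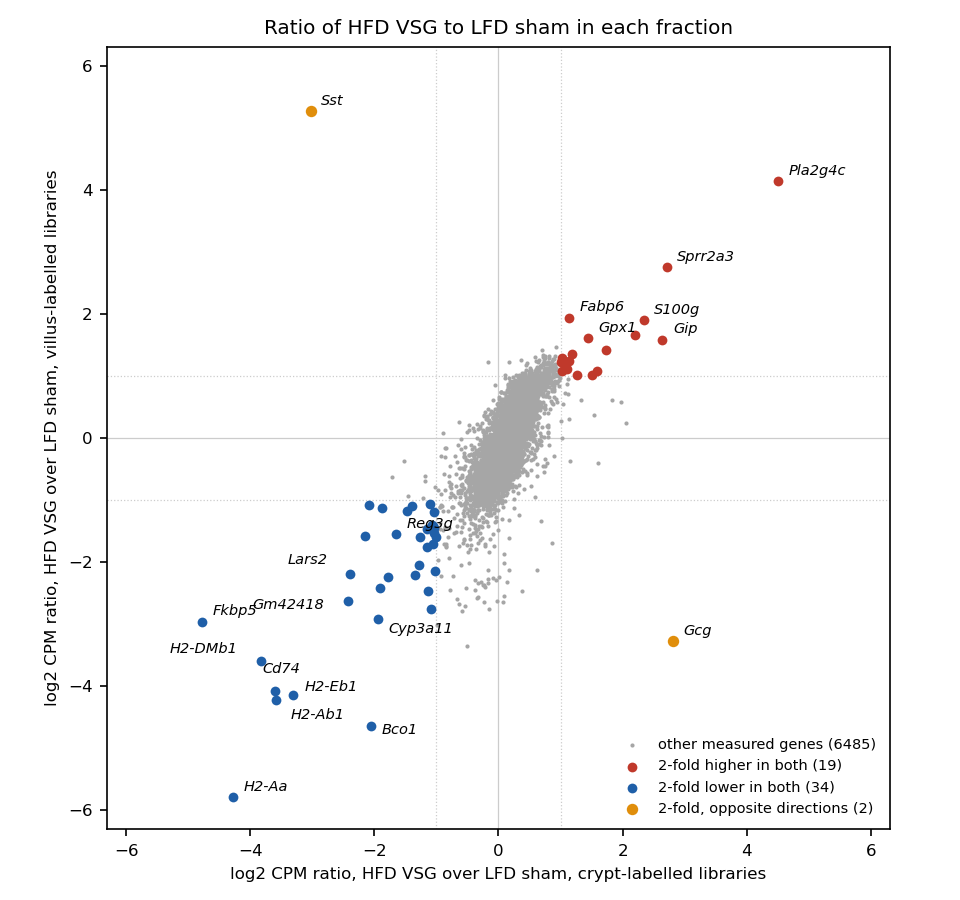
Log2 CPM ratio of HFD VSG over LFD sham in the crypt-labelled (horizontal axis) and villus-labelled (vertical axis) libraries for 6540 genes, each point 1 gene, with dotted lines at 2-fold. The 19 genes higher in both lie at the upper right, the 34 lower in both at the lower left, with H2-Aa lowest in villi and Fkbp5 lowest in crypts, and Sst and Gcg lie in the opposite quadrants.

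As a group, genes of MHC class II stood lowest in HFD VSG among the lists examined. All 6 measured members of this list were at least 2-fold lower in both fractions, against 0.52% of all genes. The list had a median log2 ratio of -3.59 in crypts and -4.11 in villi against 0.13 and -0.10 over all genes. The promoters of these genes are known for an X box, bound by the RFX complex and CREB family factors, and a Y box, an inverted CCAAT box bound by NF-Y, which together recruit the coactivator CIITA. Of the 6 measured members, 4 matched a RefSeq promoter (GRCm38.p6). The 120 bases before the start site are printed for the 3 whose window held a searched motif, because these genes were lower together. Capitals mark the letters ATTGG (or CCAAT on the other strand), the X box letters AGNNAC directly followed by NNATG (N is any base), and TGACGTCA, a CREB family site. Positions are chr17:34287824-34287943 (minus strand) for H2-Aa, chr17:34305747-34305866 (plus strand) for H2-Eb1 and chr17:34153071-34153190 (plus strand) for H2-DMb1.
H2-Aa: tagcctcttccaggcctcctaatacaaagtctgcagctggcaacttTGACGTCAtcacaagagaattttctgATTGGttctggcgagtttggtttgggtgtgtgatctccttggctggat
H2-Eb1: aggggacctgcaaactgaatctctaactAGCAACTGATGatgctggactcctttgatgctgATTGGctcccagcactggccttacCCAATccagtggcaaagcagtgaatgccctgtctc
H2-DMb1: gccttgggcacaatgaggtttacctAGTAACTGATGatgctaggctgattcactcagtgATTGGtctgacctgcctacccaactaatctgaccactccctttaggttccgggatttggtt

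ATTGG was present in 3 of the 4 genes with a RefSeq promoter, those printed above. Its first base lay 48, 59 and 61 bases before the start site of H2-Aa, H2-Eb1 and H2-DMb1, and H2-Eb1 held a CCAAT on the other strand as well. The X box letters were present in H2-Eb1 and H2-DMb1, separated from ATTGG by 22 and 23 bases, and TGACGTCA was present in H2-Aa. Searched on both strands in the same window of all 32851 RefSeq promoters, ATTGG was found in 21.3%, the X box letters in 1.15% and TGACGTCA in 1.24%. The matches describe letters only, and none of the searched motifs overlapped another in these windows. The 2 RefSeq windows of H2-DMa held none of the 3 motifs.

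H2-Aa, the alpha chain of the I-A molecule, was at 186 CPM in LFD sham and 9.65 in HFD VSG crypts, and at 115 and 2.08 in villi. Values below are given in the same order, LFD sham first. It was 19.3-fold lower in HFD VSG crypts (log2 ratio -4.27 [-4.37, -4.17]) and 55.1-fold lower in HFD VSG villi (-5.78 [-5.95, -5.62]). H2-Ab1, its beta chain partner, was at 259 and 21.6 CPM in crypts and 157 and 8.43 in villi, a log2 ratio of -3.58 [-3.65, -3.51] and -4.22 [-4.30, -4.13]. The beta chain of the I-E molecule, H2-Eb1, was at 153 and 15.4 CPM in crypts and 91.4 and 5.18 in villi (-3.32 and -4.14). HFD VSG held the lower level of each measured groove chain in both fractions.

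The genes that load the groove went the same way. Cd74, the invariant chain that guards the groove until peptide is loaded, had the most UMIs of the list, at 594 and 49.1 CPM in crypts and 393 and 23.2 in villi, with log2 ratios of -3.60 [-3.64, -3.55] and -4.08 [-4.13, -4.03]. The peptide exchange factor chains H2-DMb1 (34.1 and 2.42 CPM in crypts, 23.3 and 1.93 in villi) and H2-DMa (34.9 and 7.82, 28.8 and 9.61) had log2 ratios of -3.82 and -3.59 and of -2.16 and -1.58. H2-DMa was the member with the smallest difference. With at most 10% mitochondrial UMIs the villus log2 ratios were -3.59 for H2-Ab1, -3.47 for Cd74 and -2.91 for H2-DMb1. Ciita, the coactivator that switches the class II genes on, fell short of the 10 CPM minimum and is named after its values were seen: it was at 12.9 and 2.17 CPM in crypts and 11.4 and 1.93 in villi, log2 ratios of -2.57 and -2.56.

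MHC class I genes, which present peptides from inside the cell, differed by far less. The list of MHC class I and antigen processing genes had medians of -0.12 in crypts and -0.15 in villi, both below the 0.13 and -0.10 of all genes, and 5 of its 17 measured members lay above the median of all genes in crypts and 6 in villi. None of the 17 was 2-fold different in both fractions. H2-K1 and B2m, a heavy chain and the light chain of class I, had log2 ratios of -0.29 and -0.23 in crypts and of -0.45 and -0.28 in villi. Over 9 measured interferon-stimulated genes the medians were -0.18 and -0.76, with Ddx60, an antiviral helicase, lowest in both at -0.90 and -1.18. The median of the class I list changed sign in villi under median-of-ratios scaling, to 0.02.

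Class II RNA was spread over many LFD sham barcodes. H2-Aa had at least 1 UMI in 52.5% of the LFD sham crypt and 40.0% of the LFD sham villus barcodes, and H2-DMb1 in 25.5% and 20.9%. The most frequent member, Cd74, had at least 1 UMI in 77.0% of the LFD sham and 15.8% of the HFD VSG crypt barcodes and in 64.6% and 14.1% of the villus barcodes. When each barcode was thinned to 3000 UMIs, which 3978 LFD sham and 4839 HFD VSG crypt barcodes and 3897 and 4544 villus barcodes reached, the shares with a Cd74 UMI were 60.1% and 7.46% in crypts and 47.0% and 4.23% in villi. In barcodes led by T cell and NK cell markers, at the same depth, they were 42.0% and 4.92% in crypts (88 and 61 barcodes) and 22.7% and 2.47% in villi (339 and 527 barcodes), lower than over all barcodes in each of the 4 libraries. In droplets below 100 UMIs, which hold free RNA, Cd74 was at 509 and 41.4 CPM in crypts and 415 and 17.1 in villi, a difference of like size. After subtracting 10% of each library's UMIs as free RNA, the log2 ratio of H2-Aa was -4.29 in crypts and -5.74 in villi. Within barcodes led by enterocyte markers the log2 ratios of Cd74 were -3.62 [-3.67, -3.57] in crypts and -4.40 [-4.48, -4.33] in villi.

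B cells carry class II as well, and the joint markers of B cells and plasma cells were higher in LFD sham than in HFD VSG villi. The list does not separate the 2 cell types. Barcodes led by B cell and plasma cell markers numbered 8 in LFD sham and 10 in HFD VSG crypts (0.174% and 0.191%) and 235 and 78 in villi (5.16% and 1.66%). Of those in villi, 68 and 39 had another list within 1.5 times of the leading one. Summed B cell and plasma cell markers were 1.72 and 1.71 CPM in crypts (LFD sham, HFD VSG) and 167 and 9.01 CPM in villi, where Igkc, an antibody light chain, made up most of the LFD sham value at 99.7 CPM. Between LFD sham and HFD VSG villi class II moved in the same direction as these markers, and their part in the class II differences was not tested. In HFD sham villi these markers summed to 141 CPM. Summed class II was at 822 CPM in LFD sham, 82.3 in HFD sham and 52.5 in HFD VSG villi. None of the 9 B cell and plasma cell markers reached the 10 CPM mean in both fractions. Of the 8 myeloid markers, Cst3, which epithelial cells also express, was the only one measured. The 8 summed to 90.9 and 123 CPM in crypts and 141 and 227 in villi. Of this Cst3 made up 82.7 and 111 CPM in crypts and 130 and 219 in villi. C1qa, Csf1r and Lyz2, which macrophages express, were at most 0.327 CPM in every one of the 4 libraries, and C1qb was at most 0.0311. Itgam was higher, at 6.13 and 8.89 CPM in crypts and 8.30 and 6.55 in villi. Mrc1 was at 1.33 and 2.57 CPM in crypts and 0.436 and 0.531 in villi, and Cd68 at 0.666 and 0.312 and at 1.26 and 1.16. The part of myeloid cells in the class II differences was not tested. T cell and NK cell markers summed to 390 and 147 CPM in crypts and 1537 and 1130 in villi. Leaving out barcodes with 2 or more UMIs of these T cell and NK cell markers, the log2 ratio of H2-Aa was -4.31 in crypts and -6.02 in villi. In summed RNA, fewer cells of a type and less RNA per cell cannot be told apart.

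In the HFD sham libraries, which had the same diet as HFD VSG without the gastrectomy, H2-Aa was at 19.2 CPM in crypts and 7.42 in villi and Cd74 at 69.1 and 33.2. These levels lay between those of the other groups and nearer to HFD VSG in both fractions. No test of these positions was possible.

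**Figure D2:**
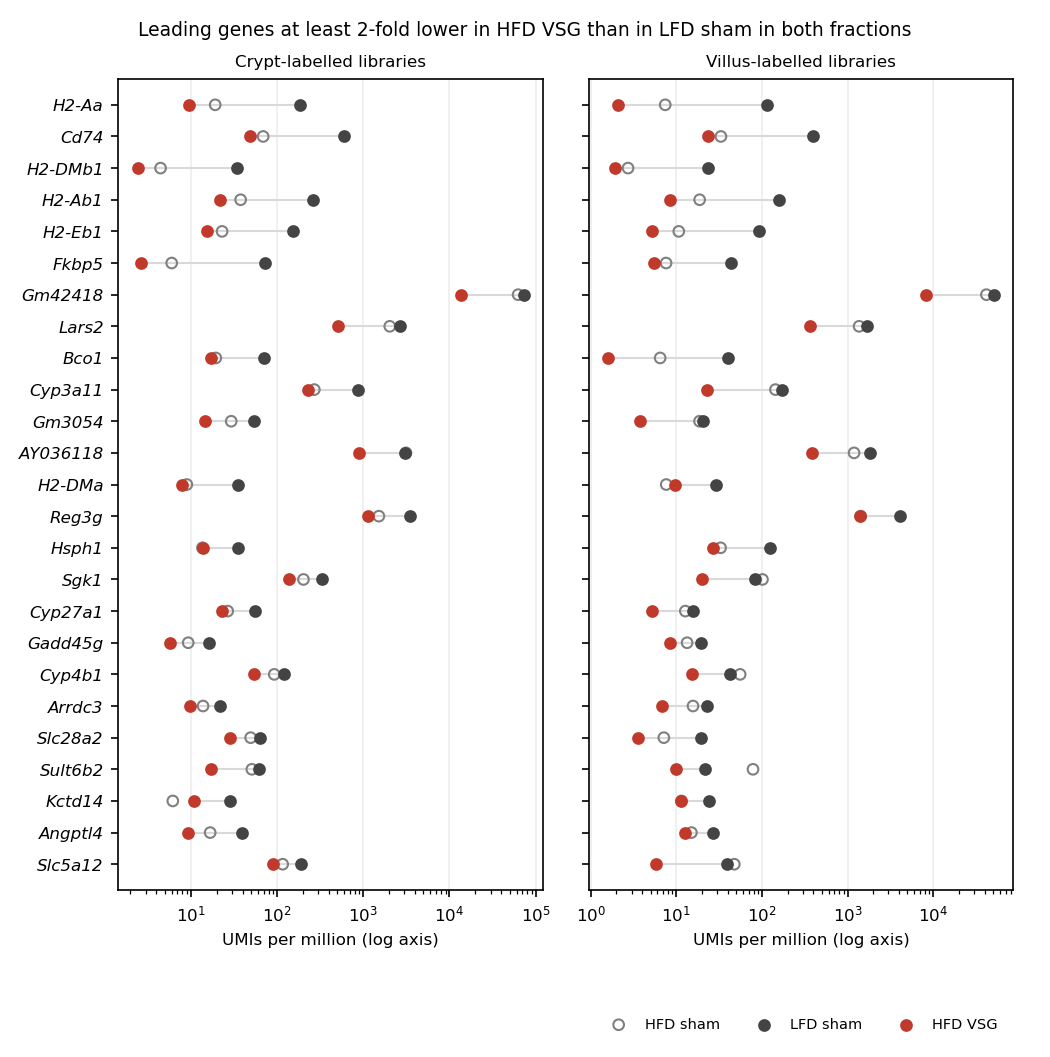
CPM (log axis) of the leading 25 of the 34 genes at least 2-fold lower in HFD VSG than in LFD sham in both fractions, ordered by the smaller of their 2 log2 ratios, with crypt-labelled libraries on the left and villus-labelled ones on the right, 1 point per library, filled dark for LFD sham, filled red for HFD VSG and open for HFD sham. H2-Aa spans 186 to 9.65 in crypts, and for Gm42418 and Lars2 the open points lie beside those of LFD sham.

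Among antimicrobial genes, Reg3g, a lectin that enterocytes and Paneth cells secrete against Gram-positive bacteria, was lower in both fractions. It was at 3532 and 1127 CPM in crypts and 4059 and 1389 in villi, 3.13-fold and 2.92-fold lower in HFD VSG (-1.65 [-1.66, -1.64] and -1.55 [-1.56, -1.54]). The HFD sham libraries stood at 1519 and 1423 CPM, and within barcodes led by stem or G2 and M markers the log2 ratios were -1.73 and -1.30. In droplets below 100 UMIs Reg3g was at 2743 and 991 CPM in crypts and 3410 and 1356 in villi (-1.47 and -1.33). At 3000 UMIs, 81.8% and 52.5% of crypt barcodes led by T cell and NK cell markers held a Reg3g UMI. In villi 86.1% and 30.4% did. Over all barcodes these shares were 71.8% and 58.3% in crypts and 82.4% and 54.8% in villi. The part of free RNA in the ratios within classes was not tested. The related Reg3b had log2 ratios of -0.88 and -1.70, whereas Reg3a (0.35 and 0.72) and, in villi, Reg1 (-0.22 and 0.42) lay on the other side of zero. Of 5 measured Reg lectins, Reg3g alone passed 2-fold in both fractions, against 0.52% of all genes lower in both.

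Paneth cell genes stood near zero in crypts and low in villi. The 11 Paneth markers had medians of -0.04 in crypts and -2.29 in villi, where all 11 were at least 2-fold lower, against 4.14% of all genes. The 15 measured alpha-defensins, peptides that kill bacteria, had medians of -0.17 and -2.33. Defensins are near-identical copies whose reads may be split between genes, so single members are uncertain, and the same holds for Gstp3, Sprr2a3 and the Reg3 genes. Lyz1, the Paneth cell lysozyme, was at 1223 and 1297 CPM in crypts and 7767 and 1332 in villi (0.09 and -2.54). The share of villus-labelled barcodes led by Paneth markers, 7.59% in LFD sham and 2.34% in HFD VSG, moved with these values, and its part in them was not tested. In crypts this share was 2.08% and 0.956% beside the marker median of -0.04.

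The lowest ratio in crypts was that of Fkbp5, which leads the list of genes that respond to glucocorticoids. Fkbp5, a co-chaperone that the glucocorticoid receptor induces and that dampens the receptor in turn, was at 72.3 and 2.64 CPM in crypts and 43.2 and 5.56 in villi, 27.4-fold and 7.77-fold lower in HFD VSG (-4.78 [-4.98, -4.59] and -2.96 [-3.07, -2.84]). Its log2 ratio was -2.80 in crypts with at most 10% mitochondrial UMIs, and -4.05 in crypts and -1.82 in villi with each barcode weighted alike. Sgk1, a serum and glucocorticoid regulated kinase that acts on sodium channels, was at 336 and 138 CPM in crypts and 83.8 and 20.2 in villi (-1.28 and -2.05). Of 11 measured members of the glucocorticoid list these 2 passed 2-fold in both fractions, against 0.52% of all genes lower in both. The medians of the list, -0.17 and -0.18, stood beside 0.13 and -0.10 over all genes. Ddit4 (-0.76 and -0.73) and Tsc22d3 (-0.62 and -0.64) were lower by less, while Klf9 (0.28 and 0.25), Dusp1 (0.22 and 0.34) and Mt1 (0.17 and 0.86) were on the other side of zero.

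The size of the Fkbp5 difference varied with the class of barcode. Within barcodes led by enterocyte markers it was at 76.2 and 1.04 CPM in crypts and 41.2 and 0.668 in villi, log2 ratios of -6.19 [-6.54, -5.87] and -5.95 [-6.46, -5.47]. Within barcodes led by T cell and NK cell markers it was at 121 and 67.8 CPM in crypts and 94.4 and 68.2 in villi, log2 ratios of -0.83 [-1.53, -0.16] and -0.47 [-0.74, -0.20]. The T cell and NK cell class held 134 and 78 barcodes in crypts and 605 and 577 in villi. These intervals cover counting error only, and the difference between the classes was not tested. In the HFD sham libraries Fkbp5 stood at 6.01 and 7.59 CPM.

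Angptl4 and Pdk4, both induced by fasting and fatty acids through PPAR receptors and by glucocorticoids, were lower as well. Angptl4, a secreted inhibitor of lipoprotein lipase, was at 39.7 and 9.35 CPM in crypts and 26.9 and 12.7 in villi (-2.09 and -1.08), and Pdk4, a kinase that shuts off pyruvate oxidation, at 52.3 and 25.1 and at 26.9 and 10.0 (-1.06 and -1.42). Other PPAR targets of the ketogenesis and fatty acid oxidation list had other values: Acot1, a thioesterase that releases fatty acids from coenzyme A, had log2 ratios of 1.11 and 0.87 and Cpt1a, the gate of fatty acid entry into mitochondria, of 0.33 and -0.04. Of 31 measured members, 24 lay above the median of all genes in crypts and 23 in villi, with list medians of 0.24 and 0.30.

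Bco1 and Cyp3a11 led the lower metabolic enzymes. Bco1, which cleaves beta-carotene into retinal, was at 71.0 and 17.1 CPM in crypts and 39.7 and 1.59 in villi, 4.15-fold and 24.9-fold lower (-2.05 [-2.14, -1.97] and -4.64 [-4.84, -4.44]), and its log2 ratios were -3.00 and -3.65 with at most 10% mitochondrial UMIs. The 12 measured members of the retinoid list had medians of 0.07 in crypts and 0.19 in villi, and 5 of them lay above the median of all genes in crypts and 9 in villi. Rbp2, the carrier of retinol inside enterocytes, was at 6080 and 10953 CPM in crypts and 2722 and 4104 in villi (0.85 and 0.59). Isx, the factor that represses Bco1, had log2 ratios of 0.10 and 0.24. The list median in crypts changed sign under 2 scalings, to -0.05 with median-of-ratios scaling and -0.03 with totals that left out nuclear and ribosomal-RNA transcripts.

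Cyp3a11, the main drug-metabolising cytochrome P450 of mouse intestine and a target of the pregnane X receptor, was at 873 and 226 CPM in crypts and 174 and 23.1 in villi (-1.95 [-1.97, -1.92] and -2.91 [-2.97, -2.86]). With at most 10% mitochondrial UMIs the villus ratio was -2.28. Its HFD sham levels were 271 CPM in crypts, near HFD VSG, and 144 in villi, near LFD sham. Cyp3a13 (-0.67 and -1.22) and Cyp2b10 (-0.61 and -1.51) were lower by less, and the carboxylesterases Ces2c (0.76 and 0.68) and Ces2a (0.19 and 0.60) were higher. Of 27 measured xenobiotic genes Cyp3a11 alone passed 2-fold in both fractions, against 0.52% of all genes lower in both. Among other enzymes, Cyp27a1, a sterol hydroxylase, had log2 ratios of -1.26 and -1.60, Cyp4b1 of -1.16 and -1.47, Sult6b2 of -1.87 and -1.13 and Akr1c14 of -1.10 and -1.06. With at most 10% mitochondrial UMIs these 4 fell short of 2-fold in villi, at -0.46, -0.76, -0.022 and -0.44.

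Among genes for disaccharidases and sugar transport, 6 of 11 measured were at least 2-fold lower in villi and 1 in crypts. Over all genes these shares were 4.14% and 0.642%, and 0.52% were lower in both. Mgam, maltase-glucoamylase, was at 4859 and 2380 CPM in crypts and 2278 and 514 in villi (-1.03 [-1.04, -1.02] and -2.15 [-2.16, -2.14]), with -1.45 in villi at the 10% mitochondrial limit, and was the only one past 2-fold in both. The medians of that list were -0.31 and -1.11, with Slc5a1, the sodium glucose cotransporter, at -0.84 and -1.70, Slc2a2, the basolateral glucose transporter, at -0.80 and -1.94, and Sis, sucrase-isomaltase, at -0.55 and -1.64. Barcodes led by enterocyte markers made up 41.8% (LFD sham) and 33.1% (HFD VSG) of the villus-labelled ones and those led by G2 and M markers 12.1% and 22.1%. The summed G2 and M markers went the opposite way in villi, at 704 and 570 CPM, with a list median of -0.56. The part of these class shares in the villus values was not tested. Within barcodes led by enterocyte markers, a list that itself holds Mgam, Sis, Slc5a1 and Treh of the 11 sugar genes, the medians of the sugar list were -0.29 and -0.88. Slc5a12, a lactate and short-chain carboxylate transporter, was at 192 and 90.5 CPM in crypts and 38.7 and 5.74 in villi (-1.08 and -2.75), and its crypt ratio was -1.78 with at most 10% mitochondrial UMIs.

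Genes of the villus tip, where enterocytes end their life, had medians of -0.40 in crypts and -1.77 in villi over 14 measured members. Slc28a2, a purine nucleoside transporter, was at 63.0 and 28.5 CPM in crypts and 19.5 and 3.53 in villi (-1.14 and -2.47, and -2.27 and -1.53 with at most 10% mitochondrial UMIs), and Abhd2, a lipid hydrolase, at 260 and 127 and at 103 and 35.8 (-1.03 and -1.53, and -0.94 in villi with that limit). At 3000 UMIs, 22.7% and 16.4% of crypt barcodes led by T cell and NK cell markers held a Slc28a2 UMI. In villi 24.2% and 15.4% of such barcodes did. Over all barcodes these shares were 9.38% and 4.48% in crypts and 5.06% and 2.35% in villi. Clca4a (-0.50 and -3.35), Ada (-0.58 and -2.79) and Enpp3 (-0.66 and -2.60) were lower by over 2-fold in villi only. Within barcodes led by enterocyte markers the list medians were -0.38 and -1.60.

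Transcripts over ribosomal RNA sequence were a large block that differed between the groups. Gm42418 alone was at 72266 and 13521 CPM in crypts (LFD sham, HFD VSG) and 51234 and 8307 in villi (-2.42 and -2.62). AY036118, which lies over the same kind of sequence, had log2 ratios of -1.78 and -2.24, and Lars2, a mitochondrial leucyl-tRNA synthetase gene that also carries sequence like ribosomal RNA, of -2.39 and -2.20. The HFD sham level of Gm42418, 62574 CPM in crypts and 41808 in villi, was near that of LFD sham. With totals that left out nuclear and ribosomal-RNA transcripts, 12 genes were higher and 47 lower in both fractions, and all 34 genes lower before were still among the lower ones. Of the 19 genes higher before, 11 kept 2-fold in both fractions.

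The other lower genes were of mixed kinds. Hsph1, a large heat shock chaperone, was at 35.7 and 14.0 CPM in crypts and 124 and 26.8 in villi (-1.35 and -2.21), and the list of immediate early and heat shock genes that it belongs to had medians of -0.12 and -0.11 over 20 members, the latter 0.07 with median-of-ratios scaling. At 3000 UMIs, 55.7% and 21.3% of crypt barcodes led by T cell and NK cell markers held a Hsph1 UMI. In villi 59.3% and 13.9% of such barcodes did. Over all barcodes these shares were 7.39% and 3.74% in crypts and 27.1% and 8.25% in villi. The orphan nuclear receptor Nr4a2 was at 14.1 and 6.90 CPM in crypts and 36.8 and 16.1 in villi (-1.03 and -1.20). At 3000 UMIs it was found in 79.5% and 44.3% of the crypt barcodes led by T cell and NK cell markers, against 3.49% and 2.21% of all crypt barcodes. In barcodes of that class it was at 814 and 283 CPM in crypts and 756 and 149.9 in villi. Without barcodes that held 2 or more T cell and NK cell marker UMIs its log2 ratios were -0.28 and 0.11, so the difference did not reach 2-fold and changed sign in villi. Within stem or G2 and M barcodes they were 0.80 and 0.29. Gm3054 (-1.90 and -2.42), the growth arrest gene Gadd45g (-1.48 and -1.18), Arrdc3 (-1.15 and -1.75), Kctd14 (-1.40 and -1.10), the kinesin Kif21b (-1.08 and -1.41), Nme7 (-1.03 and -1.46) and the histone gene Hist1h4c (-1.01 and -1.59) were also among the 34. With at most 10% mitochondrial UMIs Gadd45g and Kctd14 fell short of 2-fold in crypts, at -0.89 and -0.79, and Gm3054 was at -1.60 in villi.

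Of the 19 genes higher in both fractions, Pla2g4c had the largest ratios. It encodes a cytosolic phospholipase A2 that releases fatty acids from membrane lipids. Pla2g4c was at 1.38 and 31.5 CPM in crypts and 2.07 and 36.5 in villi, 22.8-fold and 17.6-fold higher in HFD VSG (4.51 [4.19, 4.85] and 4.14 [3.89, 4.40]). With at most 10% mitochondrial UMIs the log2 ratio in crypts was 3.00. Its UMIs sat in 0.716% and 4.34% of crypt barcodes and 0.790% and 7.20% of villus barcodes, and the 10 highest barcodes held 70.9% and 44.8% of them in crypts and 80.5% and 36.6% in villi. The LFD sham values rested on 79 UMIs in crypts and 133 in villi. At 3000 UMIs the shares were 0.151% and 1.74% in crypts and 0.231% and 2.49% in villi, against 0% and 1.64% and 0% and 0.759% in barcodes led by T cell and NK cell markers. Pla2g4c was thus a gene of few barcodes, with HFD sham levels of 10.1 CPM in crypts, of which 46.7% lay in 1 barcode, and 1.63 in villi.

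Sprr2a3, a small proline-rich protein of epithelial surfaces, was at 7.60 and 49.7 CPM in crypts and 2.99 and 20.2 in villi (2.71 [2.57, 2.85] and 2.75 [2.54, 2.97]), with HFD sham at 7.87 and 2.58, near LFD sham. Its log2 ratios were 1.18 and 3.96 with at most 10% mitochondrial UMIs, and 1.86 in villi with each barcode weighted alike. The 10 highest barcodes held 20.5% and 22.9% of the Sprr2a3 UMIs in crypts and 30.7% and 40.9% in villi. The LFD sham villi held 192 UMIs in 103 barcodes. At 3000 UMIs the shares of barcodes with a Sprr2a3 UMI were 2.54% and 5.91% in crypts and 1.05% and 2.09% in villi. S100g, calbindin-D9k, which ferries calcium across enterocytes and is a vitamin D target, was at 4.29 and 21.8 CPM in crypts and 7.78 and 29.0 in villi (2.34 [2.15, 2.54] and 1.90 [1.76, 2.03]). Of 5 measured genes of calcium absorption and vitamin D response, S100g alone was at least 2-fold higher in both, against 0.291% of all genes. Cyp27a1, of the same list, was at least 2-fold lower in both (-1.26 and -1.60), against 0.52% of all genes. The vitamin D receptor Vdr stood at 0.23 and 0.04. 2210407C18Rik was at 35.2 and 162 CPM in crypts and 40.1 and 127 in villi (2.20 and 1.66), and its crypt ratio was 1.296 with at most 10% mitochondrial UMIs. Within stem or G2 and M barcodes its log2 ratios were 1.06 in crypts and -0.16 in villi.

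**Figure D3:**
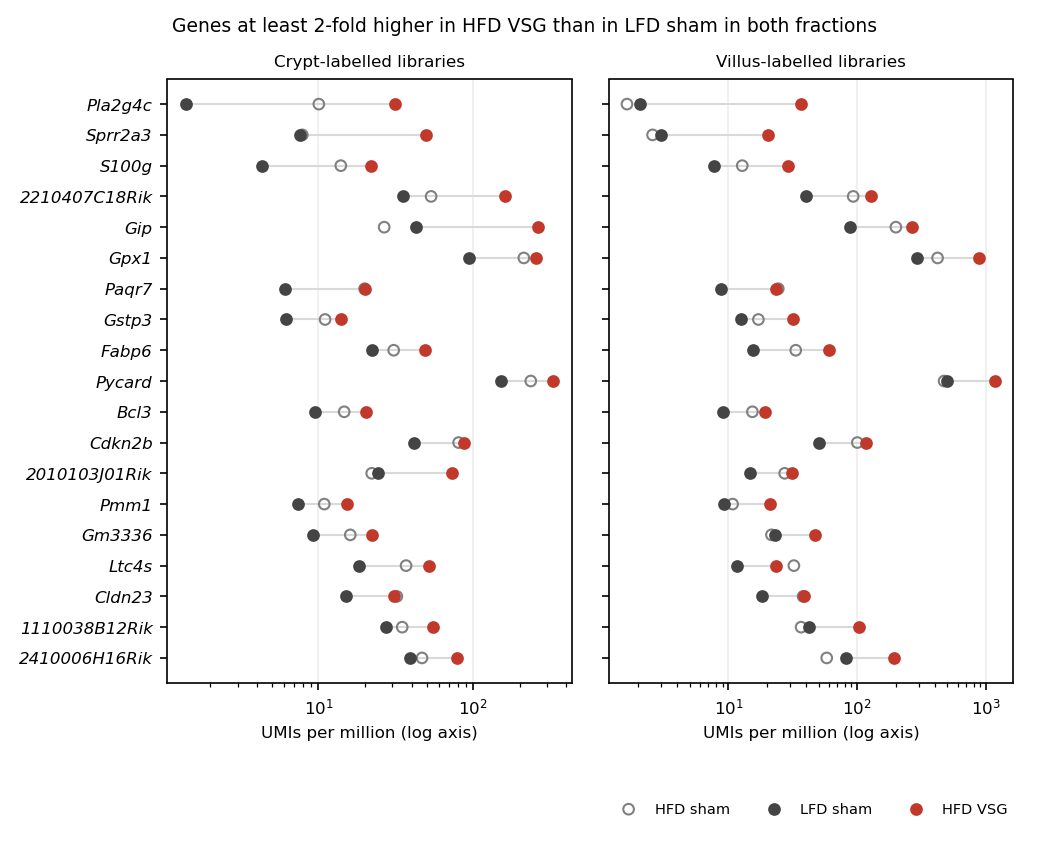
CPM (log axis) of the 19 genes at least 2-fold higher in HFD VSG than in LFD sham in both fractions, with crypt-labelled libraries on the left and villus-labelled ones on the right, 1 point per library, filled dark for LFD sham, filled red for HFD VSG and open for HFD sham. Pla2g4c moves from 1.38 to 31.5 in crypts and from 2.07 to 36.5 in villi, and the open points of Paqr7 and Cldn23 lie on those of HFD VSG.

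Gip, the incretin of K cells, was at 42.4 and 265 CPM in crypts and 88.1 and 264 in villi (2.64 [2.58, 2.70] and 1.58 [1.54, 1.62]). The 10 highest barcodes held 90.0% and 83.3% of its UMIs in the crypts and 97.0% and 87.9% in the villi. A Gip UMI was present in 5.23% and 7.76% of crypt barcodes and 3.84% and 10.5% of villus barcodes. After thinning to 3000 UMIs, 1.73% and 2.11% of crypt barcodes and 1.31% and 2.11% of villus barcodes had one, against 5.68% and 6.56% and 2.36% and 4.36% of barcodes led by T cell and NK cell markers, so these shares were at the level of background. In enterocyte-led barcodes, from which barcodes rich in Gip are removed because it is an assigning marker, the log2 ratios of Gip were 0.20 [-0.06, 0.46] and 0.54 [0.13, 0.96]. With each barcode weighted alike the crypt ratio was 1.75. The UMIs of Gip thus sat in a few barcodes, and the HFD sham libraries were at 26.6 CPM in crypts and 199 in villi.

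Fabp6, the bile acid binding protein of distal enterocytes, was at 22.1 and 48.7 CPM in crypts and 15.6 and 59.9 in villi (1.14 [1.05, 1.23] and 1.94 [1.84, 2.03]), and its log2 ratios were 4.01 and 3.35 with at most 10% mitochondrial UMIs. For Fabp6 in LFD sham crypts 43.0% of UMIs lay in 1 barcode, and in the other 3 libraries the highest barcode held 12.6% to 21.7%. The 10 highest barcodes held 57.3% to 68.3% in the 4 libraries. Of 6 measured genes of the distal small intestine Fabp6 alone passed 2-fold upward in both fractions, against 0.291% of all genes. The bile acid transporter subunits Slc51a and Slc51b had log2 ratios of -0.05 and 0.10 and of -0.12 and -0.54, and Cubn, the receptor for vitamin B12 bound to intrinsic factor, of -0.61 and -2.05. Nr1h4, the bile acid receptor FXR, stood at 0.05 and 0.19.

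Gpx1, a selenium-dependent peroxidase that reduces hydrogen peroxide, was at 94.4 and 256 CPM in crypts and 291 and 887 in villi (1.44 [1.40, 1.48] and 1.61 [1.58, 1.63]). A Gpx1 UMI was present in 30.0% and 61.2% of crypt barcodes and 60.8% and 91.9% of villus barcodes, and at 3000 UMIs in 14.5% and 35.8% and in 42.0% and 77.4%. In barcodes led by T cell and NK cell markers the latter shares were 13.6% and 29.5% in crypts and 21.5% and 37.4% in villi. Of 20 measured antioxidant genes, 17 lay above the median of all genes in crypts and 16 in villi, and Prdx1 (0.64 and 0.87), Gpx2 (0.45 and 0.90) and Prdx6 (0.43 and 0.88) were higher by less than 2-fold. Gclc, which makes the glutathione precursor, was at -0.65 and -0.12. Gstp3, a glutathione transferase outside that list, was at 6.20 and 14.1 CPM in crypts and 12.5 and 31.7 in villi (1.18 and 1.35).

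Pycard, the ASC adaptor of inflammasomes, was at 151 and 331 CPM in crypts and 494 and 1169 in villi (1.13 [1.09, 1.16] and 1.24 [1.22, 1.26]), and Bcl3, a nuclear IkappaB protein, at 9.49 and 20.4 CPM in crypts (1.10 and 1.11). Cdkn2b, the cell cycle inhibitor p15, had log2 ratios of 1.09 and 1.22, and Cldn23, a claudin, of 1.02 and 1.08. Cldn23 was the only one of 13 measured claudin and tight junction genes past 2-fold in both, against 0.291% of all genes higher in both. Cldn3 was next at 0.77 and 0.92. Paqr7, a membrane progestin receptor, was at 6.06 and 20.1 CPM in crypts and 8.80 and 23.5 in villi (1.73 and 1.42), and its HFD sham levels of 19.9 and 24.4 matched those of HFD VSG. Ltc4s, which makes leukotriene C4, had log2 ratios of 1.51 and 1.02 and the sugar phosphate enzyme Pmm1 of 1.07 and 1.17. Ltc4s and 2410006H16Rik kept 2-fold in both fractions in 7 of the 14 settings that recomputed ratios, and Pmm1 and Cldn23 did in 8. Bcl3, Gm3336 and 1110038B12Rik did in 9. Within stem or G2 and M barcodes Pmm1 was at -0.076 in crypts. The remaining 4 higher genes were 2010103J01Rik (1.59 and 1.08, and 1.96 in villi with at most 10% mitochondrial UMIs), Gm3336 (1.27 and 1.02), 1110038B12Rik (1.02 and 1.29) and 2410006H16Rik (1.01 and 1.23).

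These differences were read again within classes of barcodes. Enterocyte markers led in 3883 and 4273 crypt barcodes and 1903 and 1556 villus barcodes (LFD sham, HFD VSG), of which 145, 142, 223 and 220 had another list within 1.5 times of the leading one. The median enterocyte barcode held 284 and 204 enterocyte marker UMIs per 10000 in crypts and 248 and 96.0 in villi, so this class differed in its own markers between the groups, and the part of that in the ratios was not tested. It held 9.59 and 3.72 Paneth marker UMIs per 10000 in crypts and 30.2 and 5.23 in villi, and its medians of G2 and M, T cell and B cell marker UMIs were 0 in each of the 4 libraries. Of the 19 higher genes, 18 kept 2-fold in both fractions within this class, with Gip the exception, and of the 34 lower genes 32 did. This class held 84.2% and 81.7% of the crypt barcodes, so its crypt ratios largely repeat the sums that made the calls. Of 6260 genes measured within this class, 27 were higher and 49 lower in both fractions. Gip is one of the enteroendocrine markers and Mgam one of the enterocyte markers used to assign barcodes, so their ratios within a class are shaped by the assignment.

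Stem or G2 and M markers led in 200 and 508 crypt barcodes and 956 and 1906 villus barcodes. The median such barcode held 28.9 and 22.5 enterocyte marker UMIs per 10000 in crypts and 18.4 and 9.09 in villi, and 7.31 and 4.72 and 27.1 and 5.80 Paneth marker UMIs. Its own markers stood at 4.75 and 6.75 (stem) and 5.50 and 3.03 (G2 and M) in crypts and at 10.3 and 2.38 and 10.8 and 2.03 in villi. The class therefore differed in its markers between the groups, most in villi, and the part of this in the ratios below was not tested. Here 5 of the 19 higher genes and 21 of the 34 lower genes kept 2-fold in both fractions. H2-Aa was at 42.8 and 3.63 CPM in these crypt barcodes and 41.5 and 0.897 in the villus barcodes (-3.56 [-4.18, -2.98] and -5.53 [-5.94, -5.15]), against 206 and 10.5 and 188 and 2.89 in enterocyte-led barcodes. The level of H2-Aa was thus lower in the barcodes led by stem or G2 and M markers than in those led by enterocyte markers in each library. S100g was at 6.91 and 18.9 CPM in crypts (1.45, and 1.23 in villi), and Gpx1 at 403 and 649 CPM in crypts and 443 and 983 in villi (0.69 and 1.15). In the 5 smaller classes, led by Paneth, goblet, tuft, enteroendocrine or T cell and NK cell markers, 7 to 17 of the 19 higher and 28 to 31 of the 34 lower genes kept their sign in both fractions, the fewest higher genes in the enteroendocrine class of 38 to 58 barcodes per library.

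**Figure D4:**
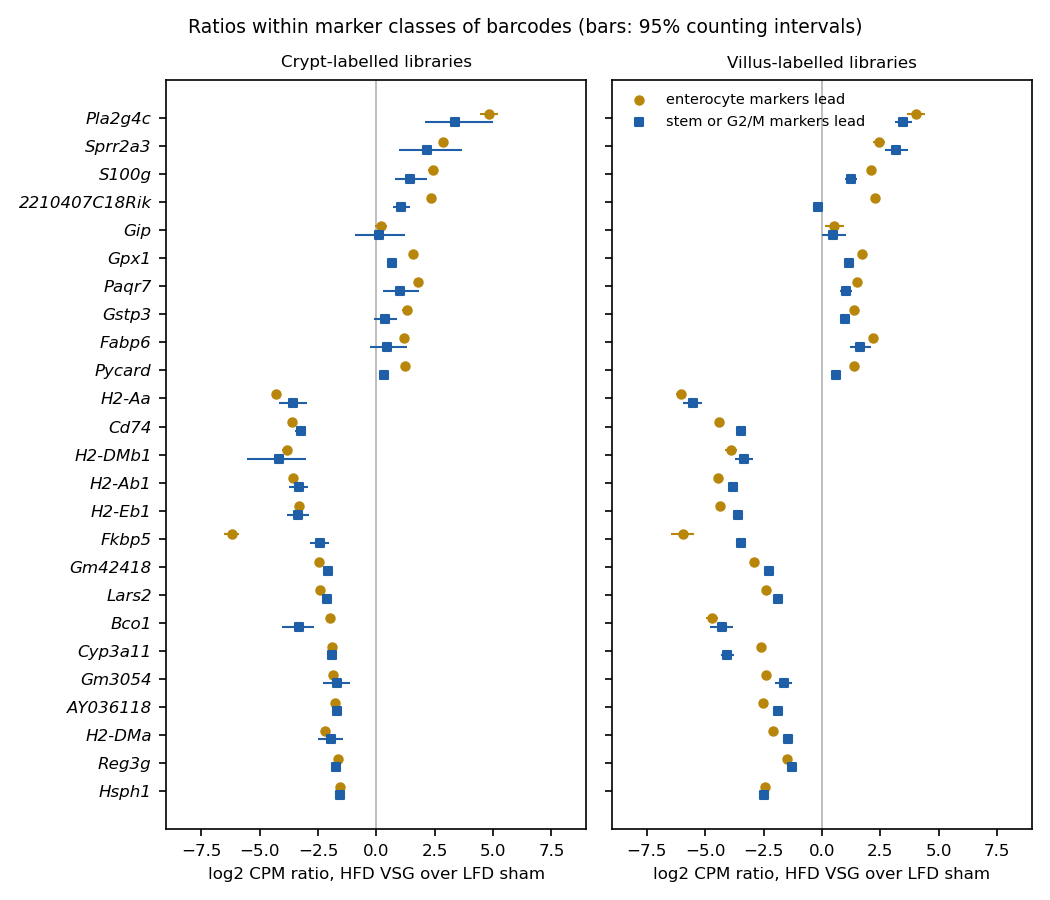
Log2 CPM ratio of HFD VSG over LFD sham (horizontal axis, bars 95% counting intervals, cut at the frame) for the 10 leading higher and 15 leading lower genes within barcodes led by enterocyte markers (circles) and by stem or G2 and M markers (squares), crypt-labelled libraries left and villus-labelled right. The class II genes lie far below zero in both classes, Gip lies near zero in crypts, and Fkbp5 is lower in the enterocyte class (-6.19 in crypts) than in the stem or G2 and M class (-2.43).

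Several gene lists were displaced as a block, with no member past 2-fold in both fractions. All 48 measured cytosolic ribosomal protein genes were above the median of all genes in each fraction. In villi 33 of them were at least 2-fold higher, against 2.16% of all genes. The list medians were 0.78 in crypts and 1.05 in villi. Within barcodes led by enterocyte markers these medians were 0.83 and 1.21 and within stem or G2 and M barcodes 0.21 and 0.55. Nuclear genes for respiratory complex I (37 members, medians 0.32 and 0.74) and for complexes III, IV and ATP synthase (37 members, 0.28 and 0.80) had list medians above those of all genes, and 33 members of each list lay above the median of all genes in crypts and 36 and 37 in villi. Members ranged from Ndufb4 (0.42 and 0.99) and Atp5g2 (0.62 and 1.14) to Ndufs1, below the median of all genes in both fractions (0.08 and -0.16), and Atp5a1 (0.18 and 0.24).

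Genes encoded by the mitochondrial genome stood elsewhere. The 13 members had medians of -0.11 in crypts and -0.35 in villi, while the median share of mitochondrial UMIs per barcode was 12.8% and 12.3% in crypts and 9.90% and 7.11% in villi (LFD sham, HFD VSG). Barcodes above 20% mitochondrial UMIs had been left out, so this share was capped by the filter and the ratios describe kept barcodes only. Of the barcodes that the authors called, 42.9% (LFD sham) and 52.0% (HFD VSG) were kept in crypts, and 47.6% and 60.5% in villi. The 13 genes spread widely, from mt-Nd1 at 0.27 and 0.06 to mt-Nd6 at -0.64 and -2.68 and mt-Atp8 at -0.98 and -3.01. mt-Atp8, a subunit of the ATP synthase, was at 2521 and 1275 CPM in crypts and 2117 and 263 in villi, with HFD sham at 1724 and 1798. mt-Co1 was at 16696 and 12638 CPM in crypts and 11030 and 8987 in villi (-0.40 and -0.30). Other genes that the study names, Gpx4 (0.21 and 0.41), Prap1 (0.37 and 0.40), Gapdh (0.33 and 0.28), Ldha (0.29 and 0.51) and Cox7a2 (0.34 and 1.02), were above the median of all genes in both fractions.

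Genes of lipid handling spread on both sides of zero. Chylomicron genes had medians of 0.19 and 0.00 over 15 members, with the lipoprotein lipase cofactor Apoc2 at 1.54 and 0.37 and its inhibitor Apoc3 at -0.54 and -1.10, and genes of fatty acid uptake and triglyceride synthesis of 0.16 and -0.33 over 18. Me1, malic enzyme, which supplies NADPH for fatty acid synthesis, was at 13.6 and 48.3 CPM in crypts and 32.9 and 50.2 in villi (1.83 and 0.61). Brush border peptidases and amino acid transporters had medians of -0.17 and -0.85 over 23 members. In villi 9 were at least 2-fold lower, against 4.14% of all genes, and 5 lay above zero. Slc15a1, the peptide transporter, was lowest there (-0.51 and -1.72). Chaperones of the unfolded protein response had medians of -0.24 and -0.56 over 20 members, with Hyou1 lowest in villi (-0.55 and -1.63).

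**Figure D5:**
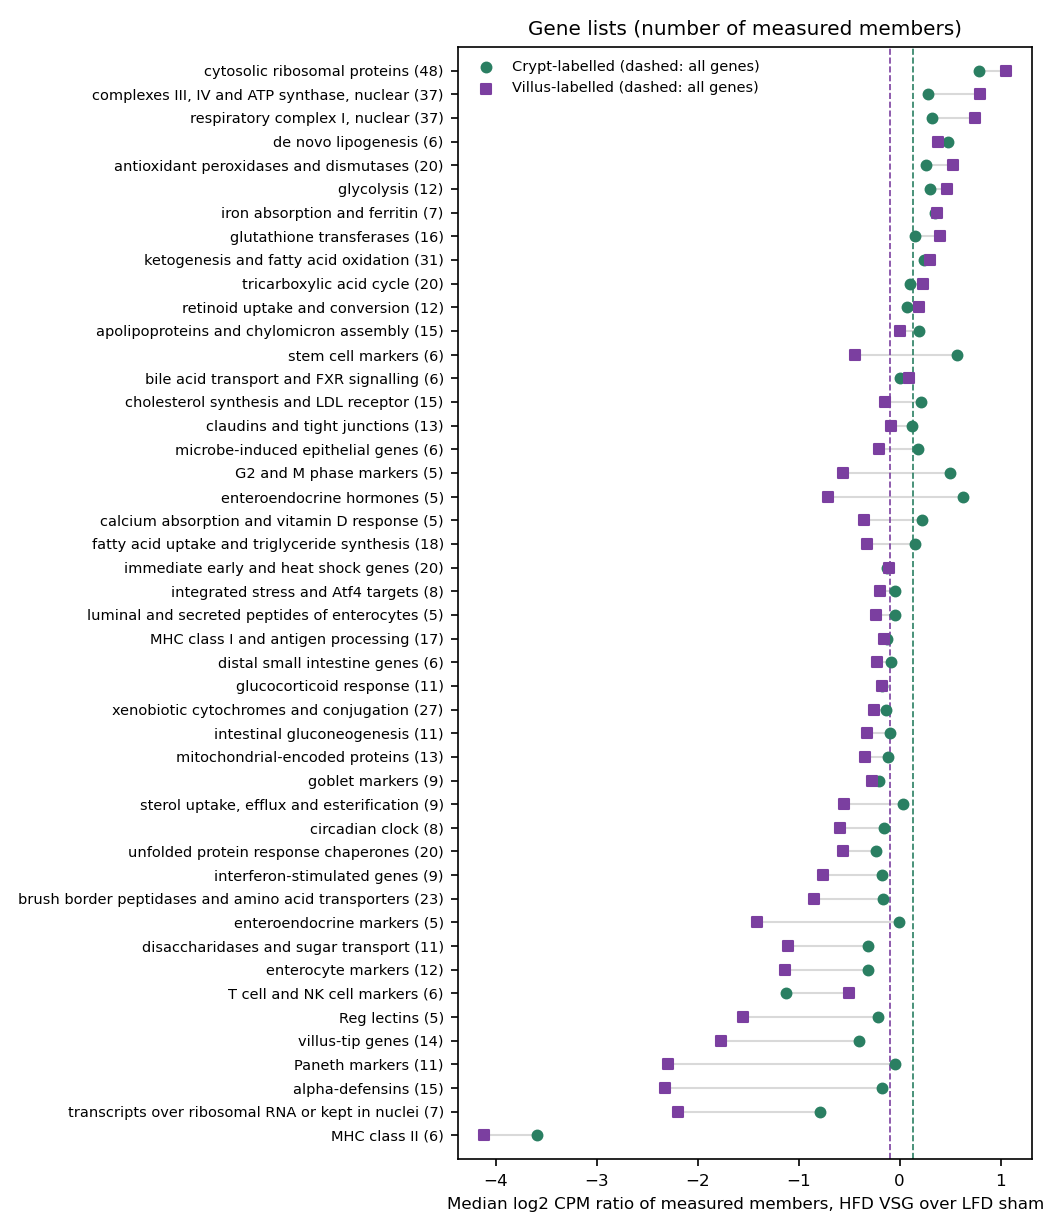
Median log2 CPM ratio of HFD VSG over LFD sham (horizontal axis) of the measured members of each gene list, with the number of members in brackets, circles for crypt-labelled and squares for villus-labelled libraries and dashed lines at the medians of all 6540 genes. MHC class II lies apart at -3.59 and -4.11, ribosomal protein and respiratory chain genes lie at the top, and the Paneth lists are displaced in villi more than in crypts.

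Among hormones of enteroendocrine cells, Gip alone of 5 measured was 2-fold different in the same direction in both fractions. Over all genes 0.291% were higher in both and 0.52% lower in both. Sst, somatostatin, was at 109 and 13.4 CPM in crypts and 0.778 and 30.0 in villi (-3.03 and 5.27), and Gcg, which encodes GLP-1, at 2.59 and 18.3 in crypts and 58.9 and 6.09 in villi (2.82 and -3.27). A single barcode held 50.4% (LFD sham) and 81.6% (HFD VSG) of the Sst UMIs in crypts and 18.0% and 66.6% in villi, and for Gcg 86.5% and 42.2% in crypts and 19.7% and 94.1% in villi. Cck was at 25.3 and 39.1 CPM in crypts and 50.9 and 11.6 in villi (0.63 and -2.13), and Sct, secretin, had log2 ratios of -0.01 and -0.71. Barcodes led by enteroendocrine markers numbered 58 and 53 in crypts and 53 and 38 in villi. In LFD sham villi the 50 Sst UMIs were spread over 41 barcodes, the 10 highest holding 38.0% of them, while in the other 3 libraries the 10 highest held at least 97.4%.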

How the data were processed

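Single-cell RNA was measured in 6 pooled libraries, of which 4 were compared. The deposited UMI counts per gene and barcode came from the authors' cell-calling step, with Cell Ranger 6.0.0 and the mm10 build named in the submitters' processing notes, and were used as deposited. The authors' free-RNA correction and batch integration are not in these counts. Barcodes with at least 750 genes and at most 20% mitochondrial UMIs were kept, and their counts summed per library, divided by the library's summed UMIs and scaled to CPM. Genes needed a mean of at least 10 CPM over LFD sham and HFD VSG in each fraction, which left 6540 of 32285 gene IDs. Of these IDs, 32235 matched GENCODE vM21 (GRCm38), and 78 shared a symbol with another. A 2-fold ratio in the same direction in both fractions defined a call. With 1 library per group and fraction no test could be fitted: intervals are exact conditional binomial 95% intervals of the 2 UMI counts and cover counting error, not variation between mice. Summed UMIs per library ranged from 57092712 to 144932811. Marker classes are cuts of a score, not cell types. Doublets were kept, and simulated doublets were used to remove 361 to 512 barcodes per library as an alternative. The text names the 15 genes furthest from zero in each direction, genes in opposite directions, genes the study names, called members of lists and some of the list extremes. Members and gene lists were chosen with earlier results of these data known. The calculation was tested on simulated data. Alternatives changed the barcode filters, the CPM minimum, the fold, the scaling, free RNA, doublets, immune barcodes and the class of barcode, and 1 more scaling, without ribosomal protein transcripts, was chosen after seeing the data. Figures were drawn with matplotlib 3.10.9, doublets scored with scikit-learn 1.9.0, and the rest computed in Python 3.11.15 with pandas 2.3.3, scipy 1.17.1 and numpy 2.4.6. Promoters are from RefSeq (GRCm38.p6). A few genes are not reported here.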

Additional observations from a re-analysis of the deposited data

Results flagged for a closer look

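The hormones Sst and Gcg lay on opposite sides of zero in the fractions. The log2 ratio of Sst was -3.03 in crypts and 5.27 in villi, and that of Gcg was 2.82 in crypts and -3.27 in villi. The difference between the fractions was not tested, since each rests on 1 library per group, and in the HFD VSG villi 1 barcode held 94.1% of the Gcg UMIs.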

How the results depend on the processing

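Against 19 genes higher, 34 lower and 2 opposite, a 1.5-fold limit gave 305, 106 and 7 and a 3-fold limit 4 higher and 12 lower. A minimum of 50 CPM gave 6, 12 and 0, no minimum gave 123, 562 and 73, and at most 10% mitochondrial UMIs gave 32, 61 and 4 and moved 23 of the 53 genes by more than 1.5 times in at least 1 fraction, against 26 within stem or G2 and M barcodes, 7 within enterocyte-marker barcodes, 6 with barcodes weighted alike and 2 without barcodes with 2 or more T and NK marker UMIs. All called barcodes gave 31 higher, 31 lower and 1 opposite. Higher genes numbered 12 with median-of-ratios scaling, 12 with totals without nuclear and ribosomal-RNA transcripts and 97 with barcodes weighted alike. Within enterocyte-marker barcodes 0 genes were opposite, and within stem or G2 and M barcodes 10 were higher and 1 opposite. In the stem or G2 and M barcodes Gcg in crypts was -1.44, Pmm1 in crypts -0.076, 2210407C18Rik in villi -0.16, Nr4a2 0.80 in crypts and 0.29 in villi and Sst in villi -0.17. In enterocyte-marker barcodes Sst in villi was -0.49, and without barcodes with 2 or more T and NK marker UMIs Nr4a2 in villi was 0.11. These values changed sign, and the cause was not tested. The other 50 of the 53 genes kept their sign under the settings run, which hold 2 of the 7 barcode classes, and 20, among which are the 6 class II genes, Fkbp5, Reg3g, Pla2g4c and S100g, kept 2-fold in all 14 settings that recomputed ratios. No paired analysis was possible because the labels give 1 library per group and fraction with no shared replicate numbers, and no result comes from a test. Variation between mice was not measured, and the Gip, Gcg, Sst, Fabp6 and, in LFD sham, Pla2g4c values rest on few barcodes or UMIs, as do the Sprr2a3 values in villi.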

Other observations

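Iron genes were higher by less than 2-fold in both fractions for the most part. Of 7 measured members of the iron list, 5 lay above the median of all genes in each fraction, with Tfrc, the transferrin receptor, at log2 ratios of 1.04 in crypts and 0.55 in villi and the ferritin chains Fth1 (0.65 and 0.70) and Ftl1 (0.59 and 0.61) beside it. Heph, also of the iron list, was lower in both fractions (-0.24 and -0.87). The 12 measured glycolysis genes had medians of 0.30 and 0.47, and the 8 measured circadian clock genes of -0.16 and -0.59. Duox2, which makes hydrogen peroxide at the epithelial surface in response to microbes, was at 2.05 in crypts and 0.24 in villi. Summed erythroid markers were at most 0.903 CPM in 3 of the 4 libraries and 58.1 CPM in HFD VSG villi.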
